A study of Mus musculus with 13 samples.

Results

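The matrix metalloproteinases (Mmp genes), the ADAMTS proteases (Adamts genes) and the tissue inhibitors of metalloproteinases (Timp genes) were examined in mammary tumors that overexpress TSG101. Members were chosen by symbol alone, as an Mmp or Adamts name followed by a number with or without a letter, or as a Timp name followed by a number. Of the 15213 genes in the deposited table, 35 matched, which were 16 Mmp, 15 Adamts and 4 Timp genes. The mouse annotation holds 46 such genes, and the 11 that the table does not list (Adamts6, Adamts13, Adamts16, Adamts19, Mmp1a, Mmp1b, Mmp16, Mmp20, Mmp21, Mmp24 and Mmp27) were not analysed here.

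RNA was sequenced from 10 tumors that arose in MMTV-tTA TetO-Tsg101 mice and from the mammary tissue of 3 FVB females without a transgene (wild type). The tumors came from 6 females that carried an MMTV-driven tetracycline transactivator and a TetO transgene (the labels write MtTA Teto-TSG101wt), which encodes HA-tagged wild-type mouse TSG101 together with a luciferase reporter, on the FVB background. MMTV-tTA is a Tet-Off driver. In glands without the TetO-Tsg101 transgene, the study describes it as active in a mosaic of luminal epithelial cells. In the carcinomas, the study reports a GFP reporter of this driver in basal epithelial cells as well. A tumor also holds cells that the driver does not target, such as stroma and leukocytes. Of the tumor-bearing females, 3 gave 1 tumor each, 2 gave 2 tumors (tumors 2 and 3, and tumors 5 and 6) and 1 gave 3 tumors (tumors 8, 9 and 10). Tumors of a female are not independent samples, and ages and the reproductive stage of the glands are not given in the sources used here.

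Metalloproteinases are zinc enzymes that cut proteins of the extracellular matrix and of the cell surface, and most are secreted as inactive precursors. MMPs cut collagens, elastin, basement membrane proteins and growth factor precursors, whereas ADAMTS enzymes cut proteoglycans such as versican and aggrecan or trim procollagens, and TIMPs bind and block the active enzymes with different preferences. In the mammary gland these genes are known for their part in duct growth, in the removal of the epithelium after lactation and in the stroma of carcinomas. RNA levels say nothing about how much of an enzyme was activated.

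Values are normalized cpm, read counts scaled to the size of the library. Tumor libraries held 6176269 to 16835397 reads on the listed genes and gland libraries 11672487 to 23889042, and 3 reads, the limit that a count of 0 allows, corresponded to between 0.128 and 0.683 normalized cpm. The share of ribosomal Rn45s ranged from 0.456% to 27.4% in tumors, with the most in tumor 9, and from 0.296% to 4.35% in glands. Tsg101 itself was at 66.5 ± 15.5 normalized cpm (SD, n = 10) in tumors and 53.2 ± 7.68 (n = 3) in glands, a log2 fold change of 0.30 that did not pass the test (limma, adjusted p = 0.296), and whether reads of the transgene were counted to this gene is not stated in the sources used here, so that this level is no check of the labels. The tissue labels were checked by marker lists. The 10 epithelial genes summed to between 1829 and 2648 normalized cpm in tumors and between 1061 and 2338 in glands, the 9 adipocyte genes to between 81.3 and 489 against between 4313 and 12343, and the 12 fibroblast genes to between 560 and 1777 against between 4498 and 5196. In whole tissue, fewer cells of a type and less RNA per cell cannot be told apart.

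Tumors were compared with glands to ask which of these genes differ between them. A gene was called when it passed a false discovery rate of 0.05 over all genes tested and changed by more than 2-fold. The 23 members that passed the filter on low values comprised 5 that were higher in tumors (Mmp12, Mmp7, Mmp13, Adamts1 and Timp1) and 1 that was lower (Adamts5), while 17 were not called. Over all 11795 genes past the filter, 10.2% were called higher and 6.99% lower. The filter keeps genes above 5 normalized cpm in most libraries, and because 10 of the 13 libraries are tumors it removes genes that are expressed in glands alone. All 35 members were therefore also tested without the filter, where 6 were called higher (Mmp10 in addition) and 7 lower (Timp4, Adamts12, Adamts18, Mmp28, Adamts14 and Mmp25 in addition), beside 10.5% and 10.1% of all 15213 genes. Of the 3418 genes that the filter leaves out, 10.9% were called higher and 20.7% lower, which is the background of the 1 higher and 6 lower calls among the 12 members left out. Over the 35 members the log2 fold change had a median of 0.06, against 0.01 over all genes tested. All tumors were above all glands in 5 members and below all glands in 7, beside 11.4% and 10.3% of all genes.

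**Figure D1:**
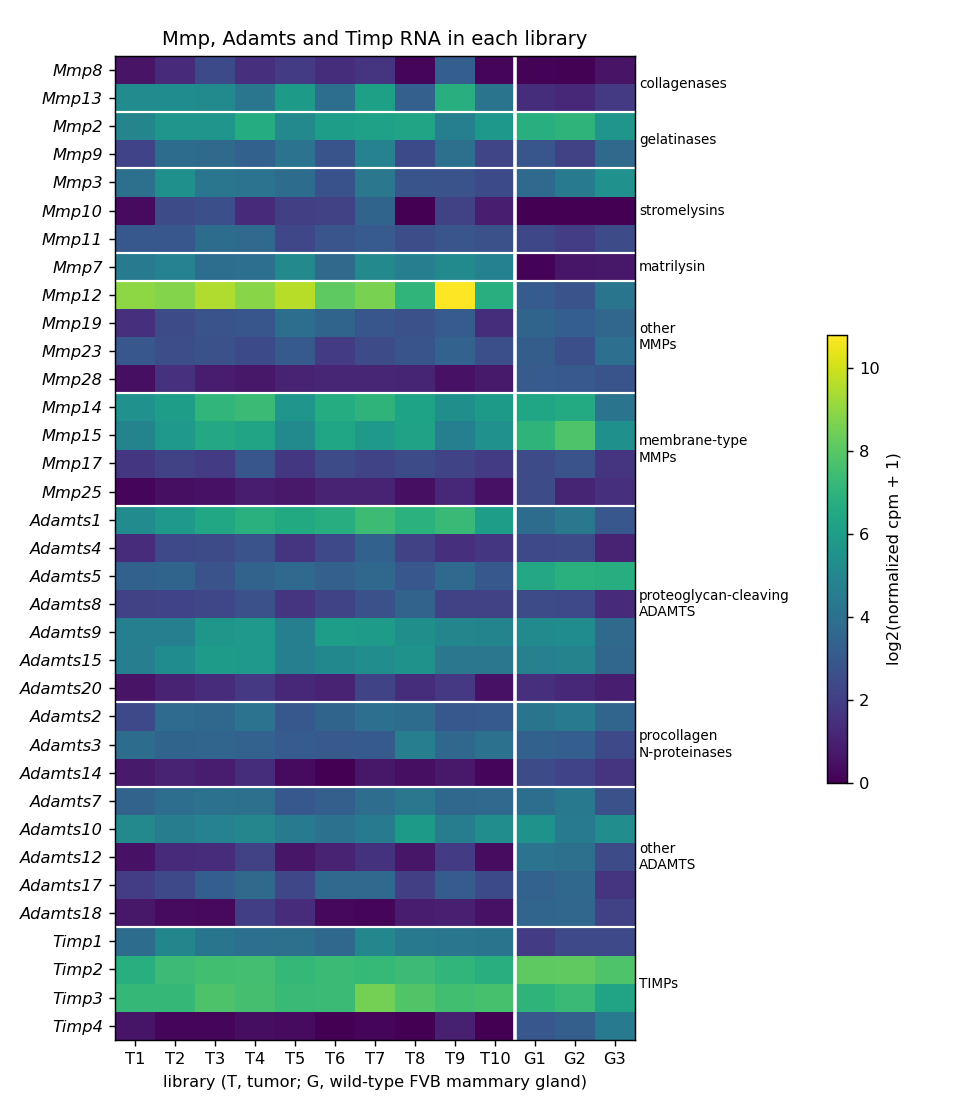
Level of each of the 35 listed members in every library as log2(normalized cpm + 1), grouped by role, with the 10 tumors on the left and the 3 glands on the right of the white line. Mmp12 has the highest mean level in tumors, while Adamts5 and Timp4 are brighter in the 3 glands than in any tumor.

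**Figure D2:**
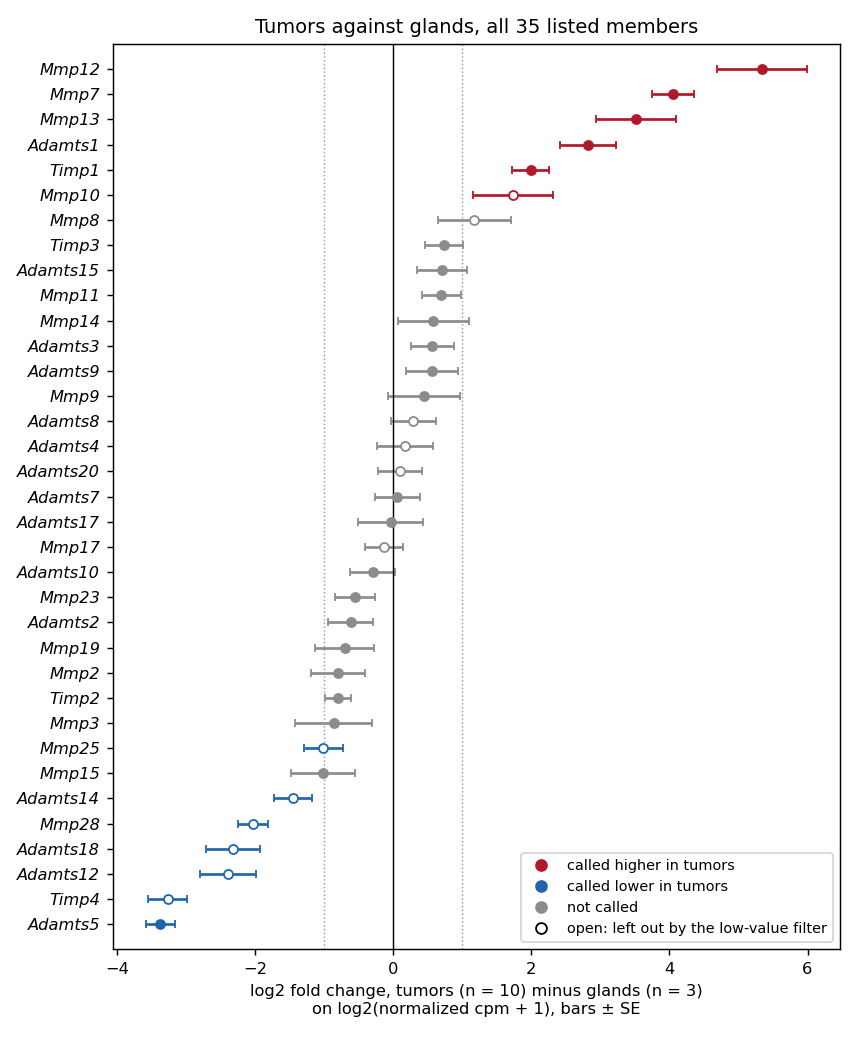
Log2 fold change of each member between the 10 tumors and the 3 glands with its SE, from limma on log2(normalized cpm + 1) without the filter, with called members in color and members left out by the filter as open circles. The changes run from -3.37 for Adamts5 to 5.34 for Mmp12, and 22 of the 35 members are not called.

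Most of the members that were higher in tumors lie in the MMP gene cluster of chromosome 9 (GRCm38.p6), which holds 10 annotated genes within 427.1 kb (chr9:7272514-7699585). The table lists 6 of them, in the order Mmp13, Mmp12, Mmp3, Mmp10, Mmp8 and Mmp7, all on the forward strand. Mmp13, Mmp12, Mmp10 and Mmp7 were called higher in tumors, whereas Mmp8 (log2 fold change 1.18 ± 0.52, SE, limma without the filter, adjusted p = 0.103) and Mmp3 (-0.86 ± 0.56, limma, adjusted p = 0.278) were not. AP-1, the dimer of Fos and Jun proteins, is the textbook activator of several genes of this cluster, and its letters TGANTCA were searched on both strands of the 250 bases before each RefSeq start. Of the 35 members, 25 had such a window, and the letters were found in 5 of them, which all belong to the cluster, while Mmp8 held none. Of 27025 genes with a window, 7.82% held the letters. The 150 bases before the start are shown for these 5, with the AP-1 letters in capitals, because the members that rose most are among them and Mmp3 is the one that was not called. The letters begin at position -35 from the start in Mmp13, -44 in Mmp12 (at the second of its RefSeq starts), -46 in Mmp3 and -63 in both Mmp10 and Mmp7. The window at the first Mmp12 start, where the annotated gene begins, held no such letters, nor did the second window of Mmp7. A match is a run of letters and not a measured site.
Mmp13, chr9:7272364-7272513, forward strand: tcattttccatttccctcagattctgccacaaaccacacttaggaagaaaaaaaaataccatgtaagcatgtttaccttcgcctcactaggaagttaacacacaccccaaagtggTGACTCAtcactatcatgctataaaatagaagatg
Mmp12, chr9:7347224-7347373, forward strand: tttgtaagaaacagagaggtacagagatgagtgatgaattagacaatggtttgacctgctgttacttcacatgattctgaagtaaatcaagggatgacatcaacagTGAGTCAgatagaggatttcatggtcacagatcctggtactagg
Mmp3, chr9:7445672-7445821, forward strand: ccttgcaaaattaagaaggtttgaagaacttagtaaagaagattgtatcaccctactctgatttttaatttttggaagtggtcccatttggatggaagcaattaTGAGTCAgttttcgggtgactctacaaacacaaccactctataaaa
Mmp10, chr9:7502192-7502341, forward strand: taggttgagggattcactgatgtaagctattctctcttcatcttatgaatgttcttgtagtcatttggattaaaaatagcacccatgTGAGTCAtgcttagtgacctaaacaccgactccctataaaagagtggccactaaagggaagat
Mmp7, chr9:7691940-7692089, forward strand: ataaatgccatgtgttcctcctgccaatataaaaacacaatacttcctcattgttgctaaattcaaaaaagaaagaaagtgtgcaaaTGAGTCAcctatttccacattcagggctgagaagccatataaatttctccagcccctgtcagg

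**Figure D3:**
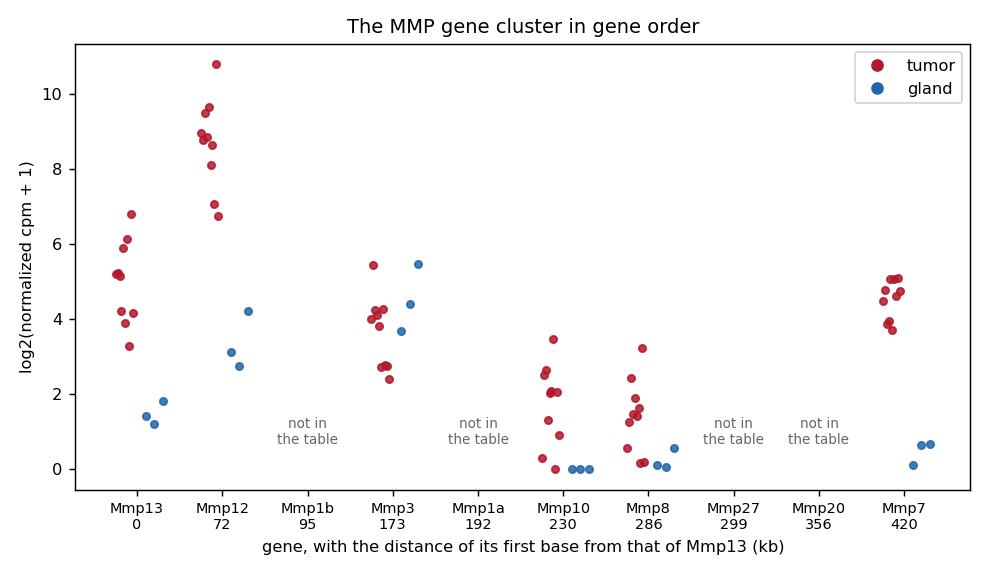
Levels of the chromosome 9 MMP genes in every library as log2(normalized cpm + 1), in gene order, with the distance of each gene from Mmp13 in kb. Tumors lie above all glands for Mmp13, Mmp12 and Mmp7, overlap with the glands for Mmp3 and Mmp8, and Mmp10 is at 0 in the 3 glands.

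Mmp12, the metalloelastase that macrophages are known to secrete, had the highest mean level per kb of exon among the Mmp genes in tumors and was called higher. It was between 107 (tumor 10) and 1768 (tumor 9) normalized cpm in the tumors, with a median of 450.4, against 7.79, 5.68 and 17.6 in glands 1, 2 and 3. The lowest tumor was above the highest gland, and tumor 9 stood above all other tumors, of which tumor 5 was next at 795. The mean was 559 ± 479 (SD, n = 10) in tumors and 10.3 ± 6.33 (n = 3) in glands, a 54.0-fold difference of means and a log2 fold change of 5.34 ± 0.66 (SE, limma, adjusted p = 3.05e-05; exact permutation test, two-sided, p = 0.0035, the smallest that 10 against 3 libraries allow). This was the largest log2 fold change of the members with a pseudocount of 1, whereas Mmp7 was above Mmp12 by the ratio of means (56.0-fold), and, without the filter, with a pseudocount of 0.1 (5.65 against 5.49), in edgeR (5.92 against 5.77) and in DESeq2 (5.96 against 5.79). Mmp10, which had no read in any gland, was higher still without the filter in edgeR (8.27) and in DESeq2 (8.11). Mmp12 shares 157 exon bases with Mmp1b on the opposite strand, and since no strand setting is stated, reads on these bases cannot be told apart.

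The summed level of the 9 macrophage genes was between 489 and 773 normalized cpm in tumors and between 343 and 399 in glands, and 3 of them (Cd68, Cd14 and Fcgr1) were called higher. The ratio of Mmp12 to Csf1r, the receptor that defines the lineage, was between 1.66 and 44.6 in tumors and between 0.0929 and 0.447 in glands. Its ratio to Cd68 was between 4.01 and 47.1 against between 0.372 and 1.27. Mmp12 was thus higher in every tumor relative to either marker and to the summed list (0.212 to 2.48 against 0.0143 to 0.0440), and no macrophage gene of the list was under the counting floor in all libraries.

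Mmp13, the main collagenase of rodents for fibrillar collagens, was between 8.83 (tumor 8) and 110.2 (tumor 9) normalized cpm in tumors, with a median of 35.02, against 1.67, 1.29 and 2.56 in the glands. The groups did not overlap. The log2 fold change was 3.52 ± 0.59 (SE, limma, adjusted p = 4.00e-04; exact permutation p = 0.0035). Mmp8, the neutrophil collagenase, was low, between 0.118 and 8.42 normalized cpm in tumors and at 0.0856, 0.0516 and 0.488 in the glands, with 7 of 10 tumors above all glands. It was called by edgeR (adjusted p = 0.0330) and DESeq2 (adjusted p = 0.00212) on recovered reads, and by limma with a mean per female (1.29, adjusted p = 0.0109) or without the female of tumors 8, 9 and 10 (1.28, adjusted p = 0.0150). The neutrophil genes (6 of the 8 on the list were in the table, without Ly6g and Elane) summed to between 302 and 3940 normalized cpm in tumors and between 3.92 and 49.5 in glands. S100a8 (means of 869 and 8.50) and S100a9 (427 and 6.57) made up most of this sum and were called higher, as was Csf3r (19.7 and 3.43), whereas Cxcr2 (3.38 and 2.49), Mpo and Retnlg were not called without the filter. The part of these genes in the Mmp8 and Mmp9 levels was not tested.

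Mmp7 (matrilysin), a small protease of epithelial cells, rose from near 0 in the glands. It was between 12.1 (tumor 6) and 33.5 (tumor 9) normalized cpm in tumors with a median of 24.7, and at 0.0856, 0.568 and 0.610 in the glands, where 2, 11 and 5 reads were counted. Every tumor was above every gland, and the tumors spanned no more than 2.77-fold. The log2 fold change was 4.06 ± 0.31 (SE, limma, adjusted p = 3.14e-07; exact permutation p = 0.0035). It shares 123 of its 1068 exon bases with an antisense gene, AV064505, and reads on these shared bases cannot be told apart.

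Among the stromelysins, which cut proteoglycans and basement membrane proteins and activate other MMPs, Mmp3 overlapped between the groups. It was between 4.30 (tumor 10) and 42.2 (tumor 2) normalized cpm in tumors with a median of 14.1, against 11.8, 20.3 and 43.2 in the glands. Mmp10 had no read in any gland and between 0 (tumor 8) and 97 (tumor 7) reads in the tumors. Its tumor mean of 3.23 ± 3.03 normalized cpm (SD, n = 10) was at least 14.9-fold higher than the mean of the 3 gland floors of 3 reads. The call for Mmp10 (limma without the filter, adjusted p = 0.0335) was lost without tumor 2 or without any 1 of the glands, with an adjusted p between 0.0504 and 0.102. Mmp11, a stromelysin that is activated inside the cell, was at 7.25 ± 2.96 in tumors and 3.90 ± 0.865 in glands and was not called (log2 fold change 0.70 ± 0.29, limma, adjusted p = 0.0858), although 9 of 10 tumors were above all glands.

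The gelatinases, which cut denatured collagen and basement membrane collagen, were not called by limma, edgeR or DESeq2 (0 of 2, with 0, 1 and 1 at an unadjusted p under 0.05). Mmp2 was between 23.9 (tumor 9) and 100.4 (tumor 4) normalized cpm in tumors with a median of 51.3, against 111, 128 and 48.9 in the glands. Gland 3 was within the tumors' range and the other two glands were above every tumor. The log2 fold change was -0.80 ± 0.40 (SE, limma, adjusted p = 0.155), and without gland 3 it was -1.22, which was called (adjusted p = 0.0408). Mmp9 was between 3.48 and 26.5 normalized cpm in tumors and between 3.20 and 12.2 in glands.

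Of the membrane-type MMPs, which act at the cell surface, Mmp14 and Mmp15 passed the filter and neither was called. Mmp14, the activator of the Mmp2 precursor, was between 40.3 (tumor 9) and 161.9 (tumor 4) normalized cpm in tumors with a median of 69.5, against 80.7, 94.4 and 16.6 in the glands. Gland 3 was below every tumor while glands 1 and 2 were within the tumors' range, and the log2 fold change of 0.58 ± 0.51 (SE, limma, adjusted p = 0.441) changed its sign to -0.19 without gland 3. Mmp15 was between 24.1 (tumor 9) and 90.7 (tumor 3) normalized cpm in tumors with a median of 55.6, against 127, 224 and 41.2 in the glands. Its log2 fold change of -1.02 ± 0.47 did not pass (limma, adjusted p = 0.127) and was called without gland 3 (-1.69, adjusted p = 0.0119), by edgeR on recovered reads (-1.22, adjusted p = 0.0419) and by DESeq2 (-1.20, adjusted p = 0.0303). Gland 3 was the lowest of the 3 glands in 20 of the 35 members.

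The GPI-anchored Mmp17 was at 3.64 ± 1.28 normalized cpm in tumors and 4.19 ± 1.91 in glands. Mmp25, the other GPI-anchored member, was called lower without the filter (0.670 ± 0.401 against 2.58 ± 1.88 normalized cpm, log2 fold change -1.01, limma, adjusted p = 0.0137), at the edge of the 2-fold limit. Without gland 1 it was -0.61 (adjusted p = 0.147), and without any 1 of tumors 1, 2, 3, 8 or 10 it was between -0.99 and -0.95, so that it was no longer called. Mmp28 (epilysin), an MMP of epithelia, was lower in tumors, at between 0.360 and 1.89 normalized cpm against 7.45, 7.02 and 5.97 in the glands (log2 fold change -2.03 ± 0.22, SE, limma without the filter, adjusted p = 7.94e-06). The tumors and glands did not overlap. Its exons share 466 bases with a gene on the opposite strand. Mmp23, a membrane protein with an ion channel-blocking domain, was between 2.83 and 9.56 normalized cpm in tumors with a median of 5.29 against 7.96, 5.27 and 14.4 in the glands, and Mmp19 was at 6.40 ± 3.64 against 9.74 ± 1.37, without a call for either.

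Within the proteoglycan-cleaving ADAMTS genes, Adamts1 and Adamts5 changed in opposite directions. They are neighbors on chromosome 16, 55.0 kb apart (Adamts1 chr16:85793827-85803113, Adamts5 chr16:85858157-85901125). Adamts1, which cleaves versican and aggrecan, was between 35.8 (tumor 1) and 165.9 (tumor 7) normalized cpm in tumors with a median of 97.8, against 13.2, 19.1 and 6.70 in the glands. All tumors were above all glands, with a log2 fold change of 2.82 ± 0.40 (SE, limma, adjusted p = 1.13e-04; exact permutation p = 0.0035). Adamts5, the main aggrecanase of mouse cartilage, was between 5.84 (tumor 3) and 11.97 (tumor 5) normalized cpm in tumors with a median of 9.57, against 91.3, 114 and 105 in the glands. All tumors were below all glands and spanned 2.05-fold, and the level was 11.1-fold lower by the means (9.27 ± 2.25 against 103 ± 11.3, SD), with a log2 fold change of -3.37 ± 0.21 (SE, limma, adjusted p = 5.57e-08; exact permutation p = 0.0035).

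**Figure D4:**
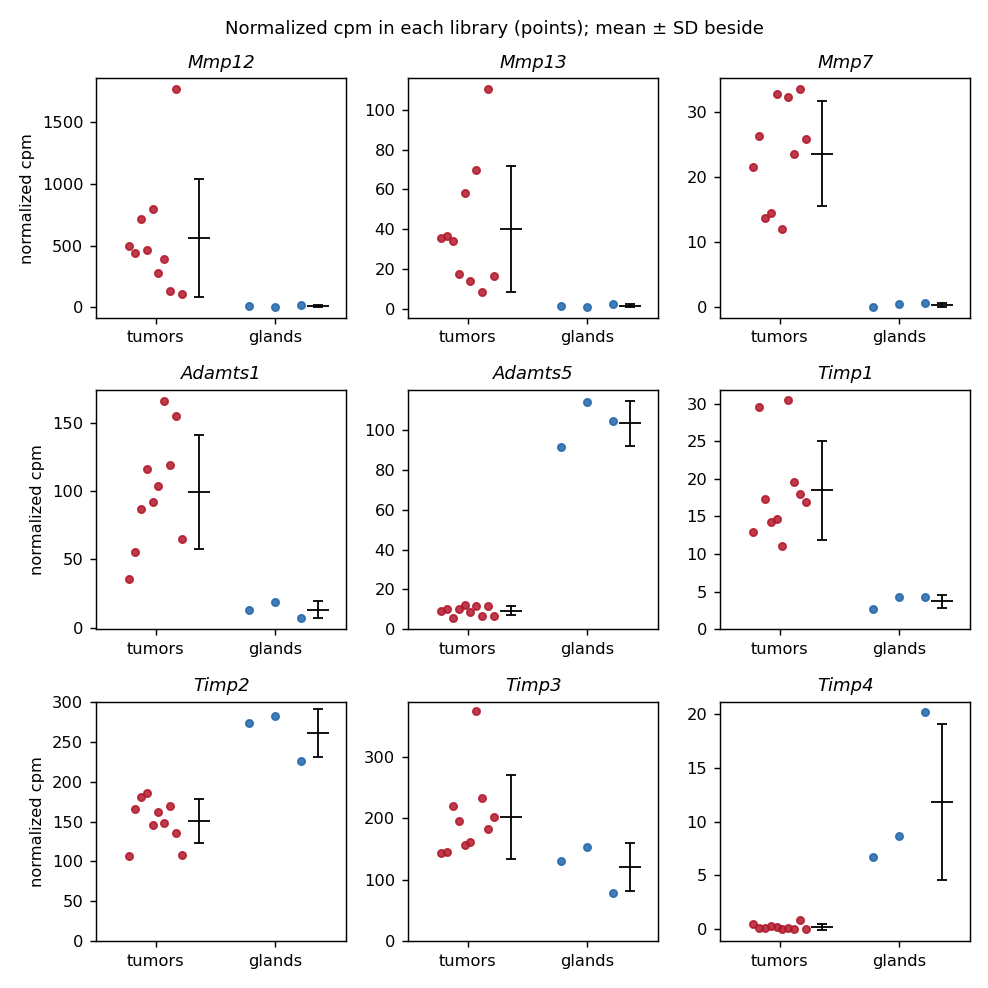
Normalized cpm of the 6 members called with the filter and of the other Timp genes in each of the 10 tumors (red) and 3 glands (blue), with the mean and SD beside the points, on linear axes of their own. Tumors and glands do not overlap in these genes except Timp3.

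Per kb of exon, the ratio of Adamts1 to Adamts5 was 24.4 ± 9.77 (SD, n = 10) in tumors, from 8.62 in tumor 1 to 39.8 in tumor 8, and 0.278 ± 0.120 (n = 3) in glands. Adamts1 made up 57.9% ± 9.79 of the per-kb sum of the 7 listed proteoglycan-cleaving genes in tumors and 12.1% ± 3.01 in glands, and Adamts5 made up 2.79% ± 1.21 against 47.7% ± 14.2. Among the rest, Adamts9 (40.1 ± 15.95 against 27.7 ± 13.5 normalized cpm) and Adamts15 (35.1 ± 14.4 against 20.95 ± 8.81) were the most abundant, and Adamts4, Adamts8 and Adamts20 had means under 5 in both groups. None of these was called (limma, Adamts9 adjusted p = 0.296, Adamts15 adjusted p = 0.171).

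Of the 12 fibroblast genes, 7 were called lower and 0 higher by limma, edgeR and DESeq2 alike (0 higher also at an unadjusted p under 0.05), and Dcn, Dpt, Pi16, Pdgfra and Pdgfrb did not pass. Relative to the fibroblast sum, Adamts5 was at between 0.00436 and 0.0157 in tumors and between 0.0203 and 0.0225 in glands. Pdgfra, the receptor that marks fibroblasts, was at 66.8 ± 22.7 normalized cpm in tumors and 47.6 ± 3.36 in glands (log2 fold change 0.41, limma, adjusted p = 0.278), and the ratio of Adamts5 to it was between 0.0789 and 0.276 against between 1.83 and 2.39. No tumor reached a gland on either scale. Pdgfra was among the 5 fibroblast genes that were not called, and the median log2 fold change of the 12 was -1.51. Col3a1 (-3.65), Col1a1 (-3.34) and Lum (-3.29) fell about as far as Adamts5 (-3.37), so the ratio depends on the marker chosen. Endothelial genes were lower as well (6 of 7 called, sums between 54.2 and 126 against between 226 and 596). The part of the other stromal cells in the Adamts5 level was not tested.

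The procollagen N-proteinases, which trim fibrillar procollagens, included 1 called gene of 3. Adamts2 was between 4.14 (tumor 1) and 16.4 (tumor 4) normalized cpm in tumors with a median of 10.8, against 17.2, 19.9 and 10.5 in the glands, and Adamts3, which also processes the lymphatic growth factor Vegfc, was between 7.17 (tumor 6) and 23.3 (tumor 8) with a median of 10.3 against 9.33, 8.31 and 4.27. Their groups overlapped. Adamts14 fell from 3.41 ± 1.19 in glands to 0.630 ± 0.496 in tumors (log2 fold change -1.46 ± 0.28, SE, limma without the filter, adjusted p = 9.73e-04), with all tumors below all glands.

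Of the other ADAMTS genes, Adamts12 and Adamts18 were lower in tumors. Adamts12, which cleaves cartilage oligomeric matrix protein, was between 0.296 and 3.24 normalized cpm in tumors against 16.4, 14.9 and 4.75 in the glands (log2 fold change -2.39 ± 0.40, limma without the filter, adjusted p = 3.51e-04). Adamts18 was between 0.105 and 3.05 in tumors against 10.6, 10.7 and 3.29 in the glands (-2.32 ± 0.39, adjusted p = 3.68e-04). In both genes every tumor was below every gland, and tumor 4 was the highest tumor. Adamts10, which binds fibrillin microfibrils, was between 15.4 (tumor 6) and 58.6 (tumor 8) normalized cpm in tumors with a median of 24.8 against 46.0, 21.7 and 37.8 in the glands, and Adamts7 (12.5 ± 3.62 against 13.03 ± 7.21) and Adamts17 (7.04 ± 3.82 against 7.63 ± 4.78) were near equal in their means. None of these was called.

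The inhibitors moved apart from each other. Timp1, an inducible inhibitor with little effect on membrane-type MMPs, rose from 2.74, 4.23 and 4.27 normalized cpm in the glands to between 11.04 (tumor 6) and 30.4 (tumor 7) in tumors, with a median of 17.1. No tumor overlapped with a gland, and the log2 fold change was 1.99 ± 0.27 (SE, limma, adjusted p = 6.99e-05; exact permutation p = 0.0035). Timp2, which takes part in the activation of the Mmp2 precursor by Mmp14, was between 107 (tumor 1) and 186 (tumor 4) normalized cpm in tumors with a median of 155, against 274, 283 and 226 in the glands. All tumors were below all glands (log2 fold change -0.81 ± 0.19, SE, limma, adjusted p = 0.00529; exact permutation p = 0.0035), but the change was under 2-fold and Timp2 was not called.

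Timp3, which is held in the matrix and also blocks ADAMTS enzymes, was between 143 (tumor 1) and 375 (tumor 7) normalized cpm in tumors with a median of 189, against 130.2, 154 and 77.9 in the glands. Of the tumors, 8 were above all glands, and the log2 fold change of 0.73 ± 0.27 did not pass (limma, adjusted p = 0.0602). Timp4, the inhibitor of fat and heart tissue, was between 0 and 0.910 normalized cpm in tumors, with a median of 0.115 and at most 9 reads, against 6.72, 8.62 and 20.1 in the glands. It was lower in all 10 tumors (log2 fold change -3.27 ± 0.28, SE, limma without the filter, adjusted p = 8.37e-07). All 9 adipocyte genes were called lower without the filter. Timp4 relative to their sum was between 0% and 0.755% in tumors, with a median of 0.0810%, and between 0.156% and 0.174% in glands. The tumors' range spanned that of the glands, and these tumor ratios rest on at most 9 Timp4 reads. Timp1, Timp3 and Timp4 lie inside the synapsin genes Syn1, Syn3 and Syn2 on the opposite strand, and 90 exon bases of Timp4 are shared with Syn2.

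Levels were set against each other per kb of exon. The 16 listed Mmp genes summed to 251 ± 129 normalized cpm per kb in tumors (SD, n = 10) and 106 ± 26.8 in glands (n = 3). Mmp12 alone made up 49.2% ± 17.3 of that sum in tumors, from 24.9% in tumor 10 to 78.7% in tumor 9, and 2.83% ± 2.39 in glands. Without Mmp12 the sums were 111 ± 24.1 and 103 ± 28.2, within the spread of either group. The Timp sum was 104 ± 21.95 in tumors and 102 ± 15.003 in glands, and its ratio to the Mmp sum was 0.500 ± 0.231 against 0.984 ± 0.109, or 0.951 ± 0.133 against 1.01 ± 0.134 without Mmp12. Without Mmp12 the difference in the ratio was smaller than the spread between libraries.

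The make-up of the Timp sum differed more than its size. Timp2 made up 39.7% ± 6.69 of the Timp sum in tumors and 69.1% ± 2.52 in glands, Timp3 40.5% ± 6.20 against 24.5% ± 4.71, and Timp1 19.8% ± 4.69 against 4.22% ± 1.34. Mmp2 and Mmp14 together made up 18.9% ± 10.5 of the Mmp sum in tumors and 41.9% ± 14.8 in glands. Of the Mmp sum without Mmp12 they made up 34.6% ± 12.8 and 42.9% ± 14.4, and tumors (14.4% to 54.2%) and glands (26.5% to 53.5%) overlapped.

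**Figure D5:**
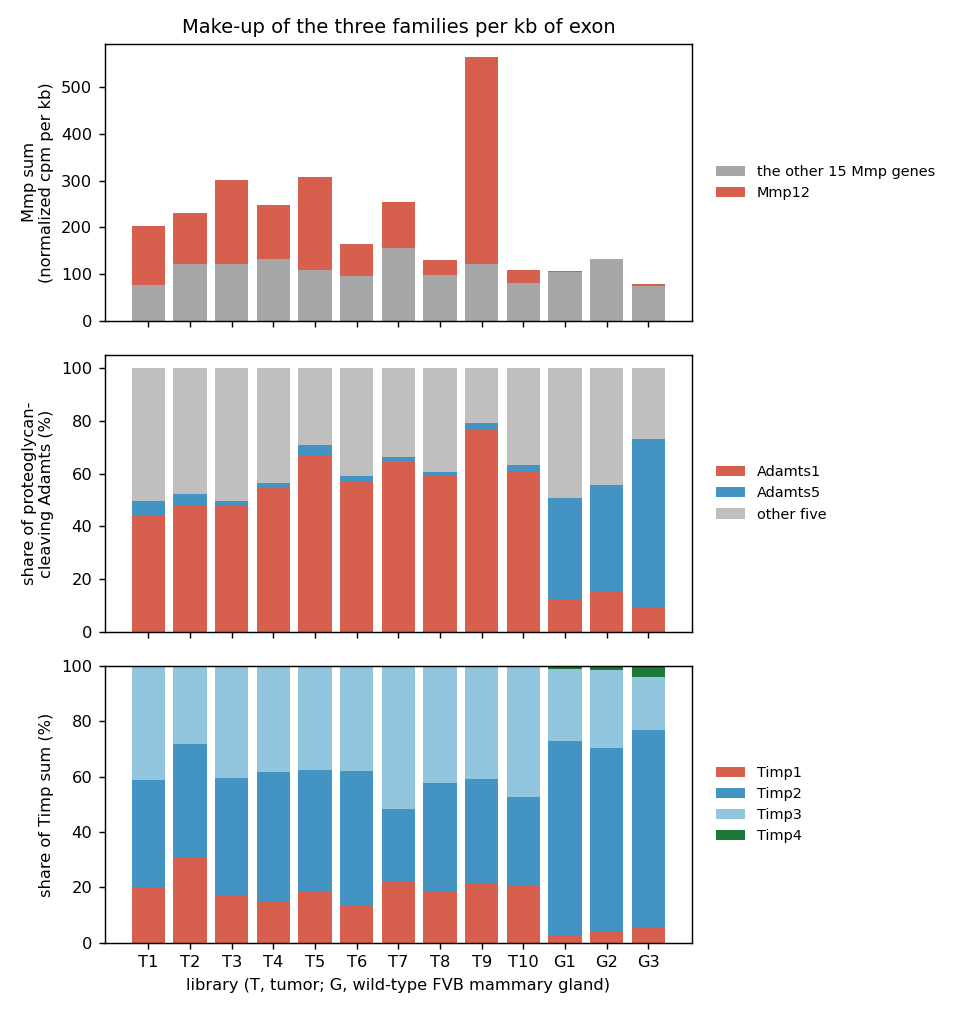
Bars give, for each of the 10 tumors and 3 glands, the sum of the listed Mmp genes per kb of exon with the part of Mmp12 (top), the shares of Adamts1 and Adamts5 among the 7 proteoglycan-cleaving genes (middle) and the share of each Timp gene in the Timp sum (bottom). Without Mmp12 the Mmp sums of tumors and glands overlap, and Adamts5 takes the place of Adamts1 as the larger share in the glands.

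Tumors of the same female differed in some members as much as tumors of different females. In tumors 8, 9 and 10, Mmp12 spanned 16.5-fold and Mmp13 spanned 12.5-fold, which were the whole ranges over the 10 tumors, whereas Mmp7 spanned 1.42-fold against 2.77-fold over all. In tumors 5 and 6, Mmp13 differed by 4.16-fold and Timp3 by 1.03-fold. Tumor 9 had the largest share of Rn45s and the highest Mmp12, Mmp13 and Mmp7 of all tumors. Over the 35 members, tumor 4 was the highest tumor in 9, tumors 7 and 9 in 7 each, and tumor 1 was the lowest in 10.

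The members were also compared with libraries scaled to marker lists, which moves all genes together. When each library was scaled to its epithelial genes, the median change over all genes shifted to -0.61 (log2) and the calls with the filter to 608 higher and 2765 lower, and when it was scaled to its fibroblast genes the median shifted to 1.57 and the calls to 9765 higher and 103 lower, against 1204 and 825 with the deposited scaling. Without the filter the calls were 853 higher and 3818 lower with the epithelial scaling and 11226 and 355 with the fibroblast scaling. Under all 3 scalings without the filter, 6 of the 35 members were called higher (Adamts1, Mmp7, Mmp10, Mmp12, Mmp13 and Timp1) and 4 lower (Adamts5, Adamts12, Adamts18 and Timp4), beside 5.58% and 2.32% of all 15213 genes. Timp2 was at -0.81 with the deposited scaling, -1.45 (called) with the epithelial scaling and 0.84 (not called) with the fibroblast scaling. As each scaling moves all genes together, its place relative to the median of all genes is nearly fixed and adds no evidence.

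Around the members, the fixed lists of partners also held called genes, beside 10.2% higher and 6.99% lower over all 11795 genes past the filter. These lists were chosen with earlier results of these data known, and no list was tested as a set. The plasminogen system yields the protease plasmin, which can activate MMP precursors. Of 10 genes tested in the plasminogen and proprotein convertase list, 4 were called higher, with Serpinb5 at 226 ± 127 against 21.5 ± 16.3 normalized cpm (log2 fold change 3.41, limma, adjusted p = 6.20e-05) and Serpine2 at 49.1 ± 20.4 against 7.07 ± 3.49 (2.64, adjusted p = 9.82e-05). Of the 10 AP-1, ETS and related factors tested, 6 were called higher and 1 lower. Fos, a subunit of AP-1, was at 59.1 ± 16.7 in tumors and 6.56 ± 3.78 in glands (3.06, adjusted p = 2.19e-06), Etv4 was at 19.2 ± 11.8 against 2.63 ± 1.13 (2.39) and Fosl2 at 115 ± 42.5 against 31.1 ± 15.6 (1.90), while Ets1 was at 40.6 ± 13.4 against 158 ± 110.4 (-1.79, adjusted p = 0.00147).

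The substrates and relatives of the ADAMTS enzymes changed in both directions. Their call counts stand beside 10.2% called higher and 6.99% lower over all genes past the filter. Of 5 proteoglycans tested, Vcan (versican), which Adamts1 and Adamts5 cleave, was called higher (103 ± 54.8 against 19.4 ± 4.03 normalized cpm, log2 fold change 2.21, limma, adjusted p = 7.54e-04), and Lum (lumican, 18.1 ± 9.92 against 156 ± 77.5, -3.29, adjusted p = 0.00368) and Hspg2 (perlecan, 118 ± 43.8 against 274 ± 123, -1.18, adjusted p = 0.0234) were called lower. Lum is also on the fibroblast list. Of 4 ADAMTS-like genes tested, which encode secreted relatives without a protease domain, 3 were called higher, with Adamtsl2 at 12.7 ± 10.6 against 0.462 ± 0.315 (2.95, adjusted p = 6.12e-04), Adamtsl5 at 35.2 ± 10.5 against 4.92 ± 0.107 (2.56, adjusted p = 1.83e-06) and Papln at 39.6 ± 15.4 against 11.4 ± 5.57 (1.75, adjusted p = 0.00212). Of 6 ADAM proteases tested, Adam8 was called higher (38.9 ± 15.5 against 9.32 ± 3.55, 1.90, adjusted p = 0.00106) and Adam19 lower (9.13 ± 3.12 against 23.9 ± 11.01, -1.26, adjusted p = 0.00551). Bmp1, the procollagen C-proteinase, was the astacin that could be tested and was higher (99.2 ± 18.2 against 46.3 ± 5.47, 1.07, adjusted p = 3.91e-04). The call was lost for Hspg2 with a mean per female (adjusted p = 0.0791), without the female of tumors 8, 9 and 10 (adjusted p = 0.0653), and when either gland 1 (adjusted p = 0.129) or gland 2 (adjusted p = 0.152) was left out, for Adam19 without gland 1 (adjusted p = 0.0628) and, at a log2 fold change of 0.99, for Bmp1 without gland 3. Of 5 other MMP inhibitors and inducers tested, 0 were called by limma, edgeR or DESeq2, while 3 had an unadjusted p under 0.05 with limma, 3 with edgeR and 4 with DESeq2.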

How the data were processed

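Per the study's methods, RNA of flash-frozen tissue was sequenced in read pairs, which the authors aligned to mm10 with Rsubread, assigned to genes with featureCounts and scaled with edgeR. The strand setting is not stated in the sources used here. Exons of 8 listed members overlap exons of a gene on the opposite strand. These are Mmp7, Mmp12, Mmp19 (789 bases with Tmem198b), Mmp28, Adamts7, Adamts8, Adamts9 and Timp4. The deposited signal values are cpm after that scaling. In all libraries 100% of them were multiples, to within 0.01 read, of what 1 read is worth, and the count tests used the read counts recovered from them.

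The members and the lists of partners and markers were chosen with earlier results of these data known. Tumors were compared with glands by limma (3.58.1, R 4.3.3) with a variance trend on log2(normalized cpm + 1), condition as the only term and all 13 libraries. A fold change on this scale understates the change of genes near 0. Genes at 5 normalized cpm or less in over 50% of the libraries were left out (3418), leaving 11795 tested, and genes were called at a Benjamini-Hochberg FDR of 0.05 and over 2-fold. Members that the filter removed were taken from the same fit of all 15213 genes. An edgeR (4.0.16) quasi-likelihood test and DESeq2 (1.42.0) on recovered reads, other filters, pseudocounts and scalings, tests that allow for tumors of a female, and leaving out libraries were the alternatives. Single members were also tested by an exact permutation test over libraries, two-sided (35 tests, p-values unadjusted). The 10 tumors entered as separate samples although some share a female. The limma step was tested on simulated data.

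Named with values in all libraries were the members called with the filter, the Timp genes and, in each role group, the member with the highest mean per kb in tumors and in glands. From each partner list the 3 largest rises and 3 largest falls among called genes were named, except 1 gene that is not reported here. Values per kb use exon lengths of GENCODE M21, and coordinates and promoter windows are those of RefSeq on GRCm38.p6 (15106 genes matched by Entrez ID). The labels name the UNMC core and Novogene without saying for which libraries, so no batch could be assigned. Floors of 3 reads, at 95% confidence, cover counting error only.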

Additional observations from a re-analysis of the deposited data

Results flagged for a closer look

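Timp3 in tumor 7 stood apart from the other tumors. Its level was 375 normalized cpm, while the next tumor was at 233 (tumor 8) and the range began at 143, and on the log2(normalized cpm + 1) scale the gap to the nearest tumor was 0.496 of the whole range, above the critical value of Dixon's test for 10 samples. All 35 members were checked in this way and 1 was past that value, where chance flags about 1 in 20 groups. On normalized cpm itself, a scale chosen after seeing the data, 9 members had a tumor past it, which were Timp3 (0.613), Mmp3 (0.632, tumor 2), Mmp12 (0.586, tumor 9), Mmp8 (0.486, tumor 9), Mmp10 (0.481, tumor 7), Adamts18 (0.494, tumor 4) and, in tumor 8, Adamts8 (0.559), Adamts3 (0.498) and Adamts10 (0.478). Tumor 7 was also the highest tumor for Timp1, Adamts1, Mmp9 and Mmp10.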

How the results depend on the processing

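The number of members called higher with the filter, 5, was 15 with the scaling to fibroblast genes and between 4 and 6 under all other alternatives. The 1 lower call became 7 without the filter, 3 with a filter of above 5 in at least 3 libraries, 2 with edgeR, 2 with DESeq2 and 8 with the scaling to epithelial genes, and leaving out 1 library gave 1 to 3, the 3 without gland 3 (Mmp15 and Mmp2 in addition). Of the members that the filter left out, 1 was called higher, which became 0 with a pseudocount of 5, 2 with edgeR, 2 with DESeq2, 5 with the fibroblast scaling, 2 with a mean per female, 2 without the female of tumors 8, 9 and 10, and between 0 and 1 when 1 library was left out. The gene added by edgeR and DESeq2 was Mmp8. The 6 called lower became 3 with a pseudocount of 5 and 3 with the fibroblast scaling, and were between 5 and 6 when 1 library was left out.

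Signs reversed with the fibroblast scaling for Adam19 (0.26), Adamts10 (1.28), Adamts2 (0.87), Hspg2 (0.46), Mmp15 (0.60), Mmp2 (0.82), Mmp23 (0.84), Mmp3 (0.66) and Timp2 (0.84), with the epithelial scaling for Adamts3 (-0.0033) and Mmp14 (-0.050), and without gland 3 for Mmp14 (-0.19, with up to 1.03 without gland 2). These scalings move all genes by construction, as the shifts of the median show. The cause of the other changes was not tested.

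Tumors and glands share replicate numbers 1 to 3, but deviations of libraries with the same number correlated at -0.64, 0.15 and -0.73, so that the numbers do not pair them. With a replicate block over these 6 libraries 529 genes were called, against 1320 in the same libraries without it, and 4 members were called higher (Adamts1 had an adjusted p of 0.113) against 5. Of the members left out by the filter, 0 were called higher with the block and 0 without it, and 3 were called lower with the block against 5 without it (Adamts12 and Adamts14 had adjusted p of 0.0576 and 0.0957 with it). Mmp3 was at 0.043 in both fits, against -0.86 in all libraries.

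Over 40 named genes and 1072 values under alternatives, 988 kept their direction and their side of the threshold, 52 lost the call, 18 gained it and 14 reversed. Depth limits the members with fewer than 10 reads in many libraries, which were Timp4 (10 tumors), Adamts14 (8), Adamts18 (7), Mmp25 (7), Mmp28 (5), Adamts12 (4), Mmp10 (3 tumors and 3 glands), Mmp8 (3 and 3), Adamts20 (3 tumors and 1 gland) and Mmp7 (2 glands).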

Other observations

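Of the 17 partner-list genes that the filter removes, 7 were called lower and 2 higher in tumors, beside 20.7% and 10.9% of all 3418 genes removed, and those named here were chosen after their values were seen. Adam12, Adam23 and Adam33, membrane proteases of the ADAM family, were at 16.5 ± 5.73, 15.5 ± 4.22 and 4.47 ± 2.44 normalized cpm in glands (SD, n = 3) and at 3.51 ± 1.78, 1.62 ± 0.872 and 0.946 ± 0.692 in tumors (n = 10), and were called lower without the filter (limma, adjusted p = 5.50e-04, 8.30e-06 and 0.00384). Ncan, a brain proteoglycan, was at 4.32 ± 0.796 in glands and 0.242 ± 0.637 in tumors, and Spock3, a matrix proteoglycan, at 2.84 ± 0.939 against 0.0777 ± 0.215. Serpinb2 and A2m, protease inhibitors, had no read in any gland and were at 9.66 ± 8.37 and 8.20 ± 9.08 in tumors.

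Of the marker lists not given above, 4 of 8 basal epithelial genes were called higher and 4 lower, with sums between 1030 and 4428 normalized cpm in tumors and between 786 and 2408 in glands. The 8 lymphocyte genes summed to between 43.1 and 198 against between 42.5 and 660, and without the filter 5 of them were called lower and 0 higher. Of the 2 that passed the filter, 1 was called lower by limma, 2 by edgeR and 2 by DESeq2. The 5 listed osteoclast and chondrocyte genes summed to between 210.3 and 328 against between 346 and 366. Without the filter 2 of these 5 genes were called higher, Col2a1 (13.03 ± 8.75 against 0.0923 ± 0.0816 normalized cpm, log2 fold change 3.47, limma, adjusted p = 2.86e-05) and Ocstamp (3.19 ± 1.41 against 0.545 ± 0.691, 1.45, adjusted p = 0.00388), and 0 lower, while Acp5, Ctsk and Sox9 were not called. Of the 4 that passed the filter, limma, edgeR and DESeq2 each called 1 higher and 0 lower, with 1, 2 and 2 lower at an unadjusted p under 0.05.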
